A study of Homo sapiens with 6 samples.

Results

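Mitochondrial ribosomal protein genes were described in the Toledo line after treatment with the CARM1 inhibitor TP-064. They were chosen by name, as the protein-coding genes whose GENCODE release 29 symbol begins with MRPL or MRPS followed by a digit. The rule gave 78 of the 18278 listed genes, which are all 78 genes of that kind in the annotation, and it used no measured value. Toledo is an established human suspension line of diffuse large B cell lymphoma. CARM1 is an arginine methyltransferase of histones and other nuclear proteins. Polyadenylated RNA was sequenced from 3 samples exposed to 5 uM TP-064 for 6 days and from 3 samples given DMSO, the solvent control, for the same time. The comparison asks how transcripts of these genes stand after days of CARM1 inhibition. Whether the replicates were separate cultures is not said in the labels, so p-values measure the spread between these samples only, which may be technical. Libraries held 41354131 to 48360867 reads on listed genes.

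The mitochondrial ribosome translates the few mRNAs of the mitochondrial genome, which encode core subunits of the respiratory chain and of ATP synthase. Its RNAs come from the mitochondrial genome, while its proteins are encoded in the nucleus, translated in the cytosol and imported. Many of these proteins descend from bacterial ribosomal proteins, and others were acquired by mitochondria. The small subunit reads the mRNA and the large subunit joins amino acids and holds the tunnel through which the new chain leaves.

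Values are normalized read counts, that is, read counts divided by a size factor of the library, and differences are log2 fold changes of TP-064 minus DMSO. A gene was called at a limma adjusted p under 0.05 over 16048 tested genes, among which all 78 of these genes stood. Of them, 56 were lower under TP-064, 8 were higher and 14 did not pass. Over all tested genes 33.3% were called lower and 31.9% higher, beside 71.8% lower and 10.3% higher among the 78, shares that are set side by side without a test. Among protein-coding genes with a mean of at least 200, which 75 of the 78 reached, 43.6% were lower and 35.5% higher. The median log2 fold change was -0.27 over the 78 genes and 0.01 over all tested genes. Their quartiles were -0.50 and -0.09, against -0.34 and 0.36 over all tested genes. In bulk RNA, fewer cells that express a gene and less RNA per cell cannot be told apart.

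All 3 TP-064 values lay below all 3 DMSO values for 55 of the 78 genes, and above them for 10, where the shares over all tested genes were 35.2% and 33.9%. Summed over the 78 genes, the normalized read counts were 161551, 173815 and 160991 in the TP-064 samples and 199154, 202840 and 198752 in the DMSO samples. That sum made up 0.382%, 0.397% and 0.383% of all listed counts under TP-064, and 0.432%, 0.434% and 0.427% under DMSO, with no overlap between the groups. Most single changes were small. The log2 fold change lay below -0.5 for 18 genes and above 0.25 for 4, and the mean under TP-064 was at most 50% of the DMSO mean for 1 gene. Against a null of a 1.2-fold change, 26 genes passed as lower and 1 as higher, where 18.1% of all tested genes passed as lower and 16.7% as higher.

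Scaling to library size in place of the size factors moved the median of all tested genes to 0.13. Under it, 45 of the 78 genes were lower and 14 higher, with a median of -0.15, where 25.9% of all tested genes were lower and 41.5% higher. MRPL19, MRPS23 and MRPS27, called lower by less than 0.13 on the log2 scale, changed sign under that scaling, to 0.00389, 0.00859 and 0.00133. TP-064 replicate 3 stood apart from the other TP-064 samples on the second principal component, which held 11.6% of the variance, at -35.2 against 21.3 for replicate 1 and 16.8 for replicate 2. Without it 55 genes were lower and 8 higher, with a median of -0.26. B cell markers were present in all samples, with 8 of 8 at a mean of at least 200 and summed counts of 112779 to 120386 under TP-064 and 116681 to 118708 under DMSO. Of T and NK cell markers 1 of 6 was measured, KLRD1, at 15.2 to 19.8 under TP-064 and 25.8 to 30.1 under DMSO, and CD3D, CD3E, CD3G, CD8A and NCAM1 were not analysed here. Of myeloid markers 3 of 5 were measured, with sums of 71.2 to 99.5 under TP-064 and 34.6 to 65.6 under DMSO. CSF1R alone of these was higher, at 68.2, 49.5 and 75.2 normalized read counts under TP-064 and 12.5, 18.9 and 6.49 under DMSO, while CD14 fell by 1.30 on the log2 scale and LYZ at -0.31 did not pass. Of epithelial and stromal markers 2 of 5 were measured, mainly COL1A1, with sums of 144 to 155 under TP-064 and 286 to 315 under DMSO. The part of other cell types in the results was not tested.

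**Figure D1:**
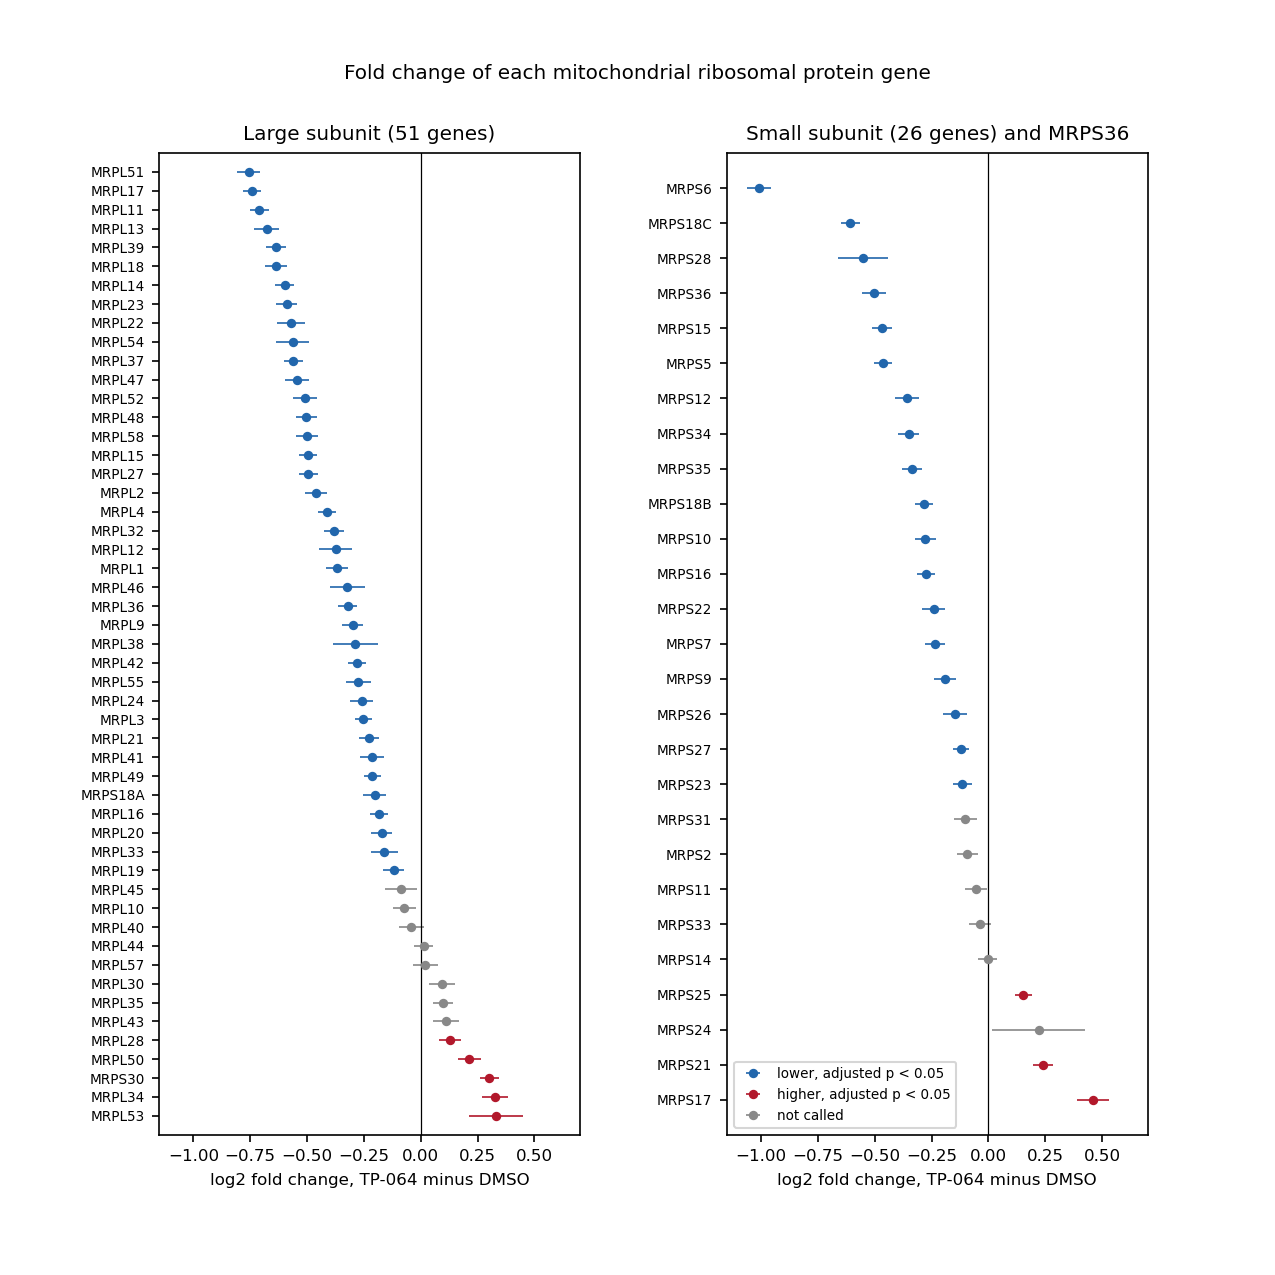
Log2 fold change (TP-064 minus DMSO, horizontal axis) of each of the 78 genes, with bars of 1 standard error, for the large subunit and for the small subunit with MRPS36. Of the points, 56 are called lower and 8 higher, from MRPS6 at -1.01 to MRPS17 at 0.46; with library size scaling the lower calls of MRPL19, MRPS23 and MRPS27 turn to values just above 0.

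Promoter sequences are shown for MRPS6, MRPL51 and MRPL17, which had the largest falls, for MRPL22, which holds matches to 3 kinds of motif, for MRPS21 and MRPS30, which rose, and for MRPL46, whose start lies beside that of MRPS11. They are RefSeq sequences on GRCh38.p14, from 250 bases before to 50 after the annotated start, read along the gene. Capitals mark matches, on either strand, to CCGGAAG (the ETS family motif, which GABPA binds), GCGCATGC (nuclear respiratory factor NRF1), AAGATGGC (YY1) or CACGTG (the E-box).
MRPS6, chr21:34073328-34073627, plus strand: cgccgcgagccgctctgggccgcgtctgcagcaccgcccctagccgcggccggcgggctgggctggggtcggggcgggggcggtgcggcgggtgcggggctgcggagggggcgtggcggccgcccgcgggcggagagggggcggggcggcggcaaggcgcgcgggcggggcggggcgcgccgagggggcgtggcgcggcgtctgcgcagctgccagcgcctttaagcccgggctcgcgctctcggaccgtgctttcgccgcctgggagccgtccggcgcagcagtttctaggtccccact
MRPL51, chr12:6493213-6493512, minus strand: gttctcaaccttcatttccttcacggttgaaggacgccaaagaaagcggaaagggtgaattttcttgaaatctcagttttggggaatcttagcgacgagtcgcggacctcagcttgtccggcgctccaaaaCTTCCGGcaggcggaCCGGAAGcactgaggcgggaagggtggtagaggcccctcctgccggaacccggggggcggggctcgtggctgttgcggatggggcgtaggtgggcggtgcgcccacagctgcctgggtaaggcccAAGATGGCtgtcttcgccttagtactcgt
MRPL17, chr11:6683291-6683590, minus strand: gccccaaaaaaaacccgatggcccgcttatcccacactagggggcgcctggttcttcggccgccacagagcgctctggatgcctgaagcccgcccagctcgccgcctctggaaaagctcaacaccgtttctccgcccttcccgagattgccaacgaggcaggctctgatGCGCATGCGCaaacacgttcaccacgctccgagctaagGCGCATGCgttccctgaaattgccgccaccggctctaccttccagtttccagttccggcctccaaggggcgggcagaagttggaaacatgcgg
MRPL22, chr5:154940823-154941122, plus strand: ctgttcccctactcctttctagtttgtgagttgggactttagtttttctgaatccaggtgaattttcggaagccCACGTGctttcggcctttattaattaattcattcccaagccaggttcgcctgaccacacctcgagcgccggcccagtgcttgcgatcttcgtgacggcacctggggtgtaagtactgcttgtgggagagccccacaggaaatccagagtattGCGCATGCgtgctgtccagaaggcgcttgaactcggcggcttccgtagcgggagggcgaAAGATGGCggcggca
MRPS21, chr1:150293611-150293910, plus strand: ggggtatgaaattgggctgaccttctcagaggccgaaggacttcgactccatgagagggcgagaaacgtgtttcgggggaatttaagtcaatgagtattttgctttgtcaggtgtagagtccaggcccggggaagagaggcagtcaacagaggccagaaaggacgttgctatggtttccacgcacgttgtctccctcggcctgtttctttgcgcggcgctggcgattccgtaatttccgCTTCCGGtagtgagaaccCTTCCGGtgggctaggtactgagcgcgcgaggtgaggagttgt
MRPS30, chr5:44808697-44808996, plus strand: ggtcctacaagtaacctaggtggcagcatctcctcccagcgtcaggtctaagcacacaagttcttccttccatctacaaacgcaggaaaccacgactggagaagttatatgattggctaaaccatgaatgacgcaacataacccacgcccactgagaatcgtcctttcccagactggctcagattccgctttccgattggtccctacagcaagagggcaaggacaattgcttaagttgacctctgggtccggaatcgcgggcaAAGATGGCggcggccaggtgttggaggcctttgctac
MRPL46, chr15:88467339-88467638, minus strand: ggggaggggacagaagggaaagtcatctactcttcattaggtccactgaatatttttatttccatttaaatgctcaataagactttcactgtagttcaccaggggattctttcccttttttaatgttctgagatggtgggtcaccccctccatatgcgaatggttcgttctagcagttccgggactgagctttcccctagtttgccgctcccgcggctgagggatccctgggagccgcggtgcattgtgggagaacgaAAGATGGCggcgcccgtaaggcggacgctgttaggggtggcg
The MRPS6 window holds none of these letters and is 82% G and C. That of MRPL17 holds 3 matches to GCGCATGC on either strand. The first pair overlaps in the palindrome GCGCATGCGC, with 1 match on each strand. MRPL51 has CCGGAAG once on each strand and AAGATGGC after the start. In MRPL22, AAGATGGC, GCGCATGC and CACGTG occur once each, and in MRPS21 CCGGAAG occurs 2 times on the opposite strand. MRPS30 and MRPL46 each have 1 AAGATGGC, after the start.

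Small subunit proteins were lower in 17 of 26 genes, higher in 3 and not called in 6, with a median log2 fold change of -0.21. MRPS6, a protein of the central domain that corresponds to bacterial S6, had the largest fall of the 78 genes. It lies on chromosome 21 from 34073224 to 34143034 of GRCh38. Its normalized read counts were 634, 666 and 687 under TP-064 and 1301, 1390 and 1306 under DMSO. The groups were far apart relative to their spread, at 662 ± 26.6 under TP-064 and 1332 ± 49.8 under DMSO (SD, n = 3 each), and the log2 fold change was -1.01 (standard error 0.053, adjusted p = 2.54e-10 by limma). Exons of 2 other genes on the same strand, among them the inositol transporter gene SLC5A3, overlap 9.61% of its exon length.

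MRPS18C, the small subunit counterpart of bacterial S18 and a neighbour of MRPS6 in the ribosome, had 1614, 1661 and 1727 normalized read counts under TP-064 against 2601, 2566 and 2456 under DMSO. It fell by 0.61 on the log2 scale (standard error 0.042, adjusted p = 7.28e-09 by limma). Exons of ABRAXAS1 cover 40.2% of its exon length on the other strand. How strand was set in the counting is not stated by the sources used here, so its count may hold reads of that gene. MRPS18 exists as 3 paralogous genes in mammals, and all were lower: MRPS18B, also a small subunit protein, at -0.28, and MRPS18A, which sits in the large subunit, at -0.20. RSPH9 exons cover 47.0% of MRPS18A on the other strand, and with library size scaling its change of -0.08 did not pass.

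MRPS15, of the central domain, had 2386, 2656 and 2445 normalized read counts under TP-064 and 3355, 3500 and 3497 under DMSO, giving a log2 fold change of -0.47. MRPS5, at the channel by which mRNA enters, had 2475, 2563 and 2372 under TP-064 and 3432, 3419 and 3368 under DMSO, giving a log2 fold change of -0.46. In both genes the 2 groups did not overlap. MRPS12, which lies at the decoding centre, fell by 0.36 on the log2 scale and MRPS34, a protein without a bacterial counterpart, by 0.35. Limma adjusted p values of these 4 genes ran from 6.09e-08 for MRPS5 to 2.19e-05 for MRPS12.

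MRPS17, a protein of the small subunit body, went the other way and had the largest rise of the 78 genes. Its normalized read counts were 531, 576 and 600 under TP-064 and 406, 440 and 394 under DMSO, giving a log2 fold change of 0.46 (standard error 0.071, adjusted p = 4.05e-05 by limma). It was the 1 gene that passed as higher against the 1.2-fold null. Exons annotated to other genes on the same strand, NIPSNAP2 among them, cover part of its exon length, and MRPS17P1 is a processed pseudogene copy, so its count is uncertain. MRPS21, of the central domain, had 4096, 4510 and 4040 under TP-064 and 3648, 3499 and 3549 under DMSO, giving a log2 fold change of 0.24. MRPS25, without a bacterial counterpart, rose by 0.15. No TP-064 value of these 3 genes fell within the DMSO range.

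MRPS14, a protein of the head, gave the smallest difference of all, with 1525, 1547 and 1520 normalized read counts under TP-064 and 1559, 1548 and 1498 under DMSO. Its log2 fold change of -0.00373 (standard error 0.041, adjusted p = 0.945 by limma) turned to 0.12 with library size scaling. MRPS24, also of the head, was the lowest of the 78 genes per kilobase of transcript, with normalized read counts of 42.0, 35.6 and 37.6 under TP-064 and 29.1, 34.8 and 34.6 under DMSO. At that depth its log2 fold change of 0.22 (standard error 0.21, adjusted p = 0.364 by limma) could not be told from none. A readthrough gene, URGCP-MRPS24, shares 23.2% of its 2613 exon bases on the same strand, where the transcript used for length has 707 bases. How reads within both genes were counted is not stated, so the count of MRPS24 and its rank are uncertain. MRPS36 carries the family name but is known as a subunit of the oxoglutarate dehydrogenase complex. It had 792, 878 and 811 under TP-064 and 1157, 1204 and 1159 under DMSO, and fell by 0.50.

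Large subunit proteins were lower in 38 of 51 genes, higher in 5 and not called in 8, with a median log2 fold change of -0.29. MRPL51, acquired by mitochondria, had the highest DMSO level of the 78 genes per kilobase of transcript and the largest fall in the large subunit. It lies on chromosome 12 from 6491886 to 6493841. Its counts were 4366, 5069 and 4476 under TP-064 and 7661, 8164 and 7644 under DMSO, with a log2 fold change of -0.76 (standard error 0.050, adjusted p = 4.18e-09 by limma). NCAPD2, a condensin subunit with 14640 ± 516 normalized read counts under TP-064 and 35174 ± 747 under DMSO (SD, n = 3 each), covers 31.3% of its exon length on the other strand. The part of those reads in the MRPL51 count was not tested.

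MRPL17, at the exit of the tunnel, lies on chromosome 11 from 6680782 to 6683401. It had 2565, 2723 and 2561 normalized read counts under TP-064 and 4297, 4485 and 4358 under DMSO. The highest TP-064 value stood far below the lowest DMSO value, with a log2 fold change of -0.74 (standard error 0.038, adjusted p = 2.30e-10 by limma). MRPL11, of the stalk base where translation factors bind, had 2517, 2736 and 2500 under TP-064 and 4265, 4160 and 4254 under DMSO, giving a log2 fold change of -0.71. MRPL13 fell by 0.68 on the log2 scale. MRPL39, which has no bacterial counterpart, and MRPL18, a protein of the central protuberance, each fell by 0.64. For MRPL39 the counts were 1065, 1138 and 1155 under TP-064 and 1746, 1762 and 1711 under DMSO. For MRPL18 they were 1479, 1624 and 1594 under TP-064 and 2399, 2537 and 2367 under DMSO. Limma adjusted p values of these 4 genes ran from 8.22e-10 for MRPL11 to 4.22e-08 for MRPL13, and none of their groups overlapped.

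MRPL58, a peptidyl-tRNA hydrolase built into the large subunit that can free stalled chains, had 1417, 1463 and 1316 normalized read counts under TP-064 and 1924, 2021 and 1983 under DMSO, giving a log2 fold change of -0.50. MRPL12, the stalk protein that also binds the mitochondrial RNA polymerase, had 502, 480 and 432 under TP-064 and 598, 577 and 656 under DMSO, giving a log2 fold change of -0.37. The groups did not overlap in either gene, but 68.2% of the MRPL12 exon length is shared with another annotated gene of the same strand, so its count is uncertain.

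MRPS30, named for the small subunit but placed in the large one, was higher under TP-064 in every sample. Its normalized read counts were 4230, 4465 and 4032 under TP-064 and 3444, 3481 and 3387 under DMSO, giving a log2 fold change of 0.30 (standard error 0.041, adjusted p = 1.04e-05 by limma). MRPL34 had 1370, 1417 and 1223 under TP-064 and 1059, 1076 and 1056 under DMSO, giving a log2 fold change of 0.33. The samples of each of these genes were fully separate. MRPL50 rose by 0.21, and MRPL28 by 0.13. The MRPL28 call was lost without TP-064 replicate 2 (0.07), DMSO replicate 2 (0.13) or DMSO replicate 3 (0.11). MRPL53, named although its mean was under 200, was at 161, 138 and 172 under TP-064 and 117, 133 and 122 under DMSO, and CCDC142 shares 45.2% of its exon length on the same strand. Its log2 fold change of 0.33 passed with all samples (adjusted p = 0.0232 by limma) but not without DMSO replicate 1 (0.29), DMSO replicate 3 (0.32), TP-064 replicate 1 (0.31) or TP-064 replicate 3 (0.26). MRPL44, a protein related to ribonuclease III, had 2020, 2108 and 1999 under TP-064 and 2018, 2081 and 1973 under DMSO. Its log2 fold change of 0.01 did not pass (adjusted p = 0.80 by limma), although it was at 0.14 and passed with library size scaling.

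**Figure D2:**
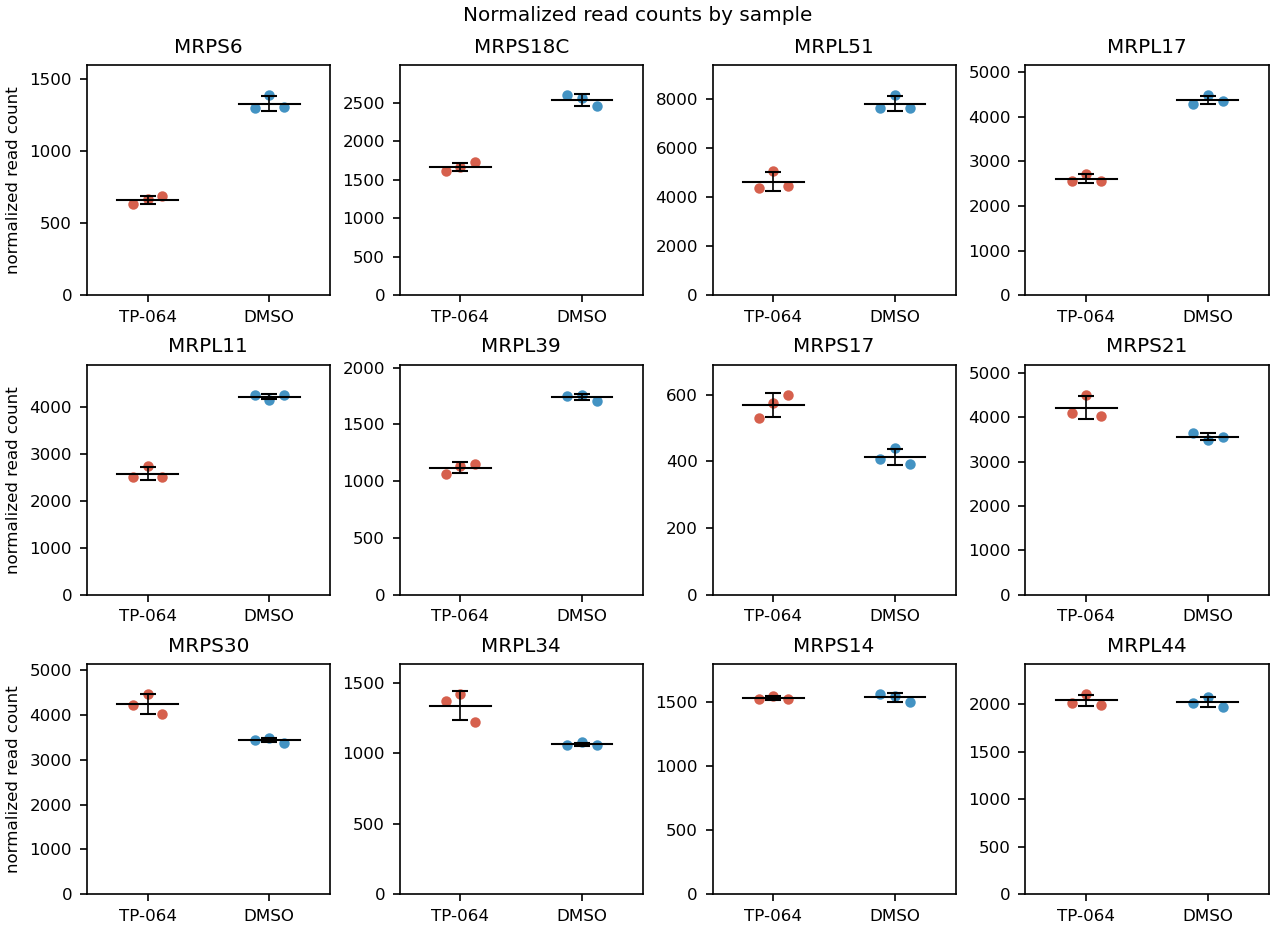
Normalized read count (vertical axis, from 0) of 12 named genes in the 3 TP-064 samples and the 3 DMSO samples, with the mean as a long line and 1 SD as a bar. TP-064 and DMSO points are separate for the 6 genes that fell and the 4 that rose and overlap for MRPS14 and MRPL44, of which MRPS14 changes sign with library size scaling.

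Genes were also grouped by place in the ribosome, in chosen lists that may not hold every protein of a place. MRPL45, which is in none of the lists, was at -0.09 and did not pass. All 5 genes listed for the tunnel exit fell, MRPL17 by 0.74, MRPL23 by 0.59, MRPL22 by 0.57, MRPL47 by 0.54 and MRPL24 by 0.26 on the log2 scale. MRPL23 had 2079, 2304 and 2034 normalized read counts under TP-064 and 3202, 3323 and 3126 under DMSO. MRPL22 had 496, 541 and 515 under TP-064 and 799, 782 and 728 under DMSO. All 5 genes listed for the surroundings of the peptidyl transferase centre also fell. MRPL27 fell by 0.49, MRPL2 by 0.46, MRPL4 by 0.41, MRPL3 by 0.25 and MRPL16 by 0.18. Of these, MRPL16 did not pass with library size scaling (-0.06). Of 7 genes of the central protuberance 6 fell, and MRPL40 at -0.04 did not pass. Of the 6, MRPL38 did not pass with library size scaling (-0.16, adjusted p = 0.166 by limma), by DESeq2 (adjusted p = 0.0803), without DMSO replicate 3 (-0.22, adjusted p = 0.0913) or without TP-064 replicate 2 (-0.22, adjusted p = 0.0722). Of 4 stalk genes 3 fell, and MRPL10 at -0.07 did not pass. The 5 genes of the large subunit that rose are in none of these lists. The lists hold 5, 5, 7 and 4 genes where the large subunit has 51. Their genes were named after values were seen, so this is no test of place.

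Genes of the small subunit were grouped in the same way. In its central domain MRPS6, MRPS18C and MRPS15 fell, MRPS21 rose and MRPS11 at -0.05 did not pass. In the body MRPS5, MRPS12 and MRPS16 fell and MRPS17 rose. In the head MRPS7, MRPS9 and MRPS10 fell by 0.19 to 0.28, while MRPS14 and MRPS24 did not pass. MRPS9 at -0.07 did not pass with library size scaling. Proteins with a bacterial counterpart had medians of -0.34 in the large subunit (25 of 30 lower, 2 higher) and -0.26 in the small subunit (10 of 16 lower, 2 higher). Those acquired by mitochondria had medians of -0.21 in the large subunit (13 of 21 lower, 3 higher) and -0.13 in the small subunit (7 of 10 lower, 1 higher). With library size scaling these medians were -0.22, -0.13, -0.09 and -0.01. The difference between these classes was not tested.

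Per kilobase of transcript, the DMSO level of the 78 genes had a median of 1739 normalized read counts, with quartiles of 839 and 2709 and a range of 46.4 for MRPS24 to 6339 for MRPL51. The median under TP-064 was 1423. Over the 78 genes Spearman's rho with the log2 fold change was -0.0754 for the mean count and 0.369 for transcript length, as a description of genes in the same 6 libraries. The median transcript was 1378.5 bases long, against 3154.5 for protein-coding genes with a mean of at least 200. Of the 39 shorter genes 35 were lower and 2 higher, with a median of -0.36, and of the 39 longer genes 21 were lower and 6 higher, with a median of -0.12. Among 1214 protein-coding genes with transcript lengths between the quartiles of these 78 genes, 50.4% were lower and 28.7% higher, with a median of -0.13. Over all 9624 protein-coding genes with a mean of at least 200, 43.6% were lower and 35.5% higher. Among the 78, 71.8% were lower and 10.3% higher. The part of length in the result was not tested.

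An exon of another gene lies on the opposite strand for 28 of the 78 genes. Of these, 21 were lower and 2 higher, with a median of -0.24. Of the 50 genes without such an overlap, 35 were lower and 6 higher, with a median of -0.28. The difference between these groups was not tested. Pseudogenes of MRPL37, MRPL45, MRPS17 and MRPS31 are among 7 listed genes with an MRP name that are not protein-coding, with at most 109 normalized read counts in any sample, and counts of these 4 genes are uncertain where reads match both copies.

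Of the 78 genes, 29 start within 1000 bases of a protein-coding gene on the opposite strand, with the start taken as the outermost GENCODE bound of the gene. The promoter windows use RefSeq starts instead, by which 18 of the 29 pairs also lie within 1000 bases, 4 lie farther apart, among them MRPL36 with NDUFS6 and MRPL11 with PELI3, and 7 have a gene missing from that table. Several of these neighbours act in cell division, DNA repair or mitochondria. Among 27 pairs with both genes tested, 13 had the same sign and 14 opposite signs, 7 were both lower, 1 was both higher and in 4 the mitochondrial ribosomal protein gene was lower and its neighbour higher. Of the other 15, one or both did not pass. Among the neighbours in the 27 pairs 8 were lower and 6 higher, where 33.3% of all tested genes were lower and 31.9% higher. The pair counts are given without a test. With library size scaling 13 of the 27 had the same sign too. Of the 18 pairs close by both annotations, all tested, 10 had the same sign and 8 opposite signs, 5 were both lower and in 3 the mitochondrial ribosomal protein gene was lower and the neighbour higher. MRPL27 fell by 0.49 and EME1, a subunit of a DNA repair nuclease, fell by 1.66, at 457 ± 32.0 normalized read counts under TP-064 and 1445 ± 57.7 under DMSO (SD, n = 3 each). MRPL18 and the chaperonin subunit TCP1 fell by 0.64 each. MRPL13 and MTBP, a pair by GENCODE only that has a gene missing from the RefSeq table, fell by 0.68 and 1.16.

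Other pairs were divided. MRPS34 fell by 0.35 while EME2, a partner of the same kind of nuclease as EME1, rose by 1.11, with 2571 ± 90.5 normalized read counts under TP-064 and 1189 ± 66.5 under DMSO (SD, n = 3 each). MRPL14 fell by 0.60 and the membrane protein gene TMEM63B rose by 0.67. MRPL57 at 0.02 did not pass, next to SKA3, a kinetochore protein gene that fell by 1.54. MRPL46 and MRPS11 start 34 bases apart by GENCODE and 320 by RefSeq, and are both mitochondrial ribosomal protein genes. MRPL46 had 304, 325 and 331 normalized read counts under TP-064 and 414, 371 and 420 under DMSO, giving a log2 fold change of -0.32. MRPS11 had 1580, 1740 and 1602 under TP-064 and 1671, 1669 and 1767 under DMSO, which overlap. Over the 27 pairs Pearson's r was 0.230 and Spearman's rho 0.223, given as a description of genes in the same libraries.

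**Figure D3:**
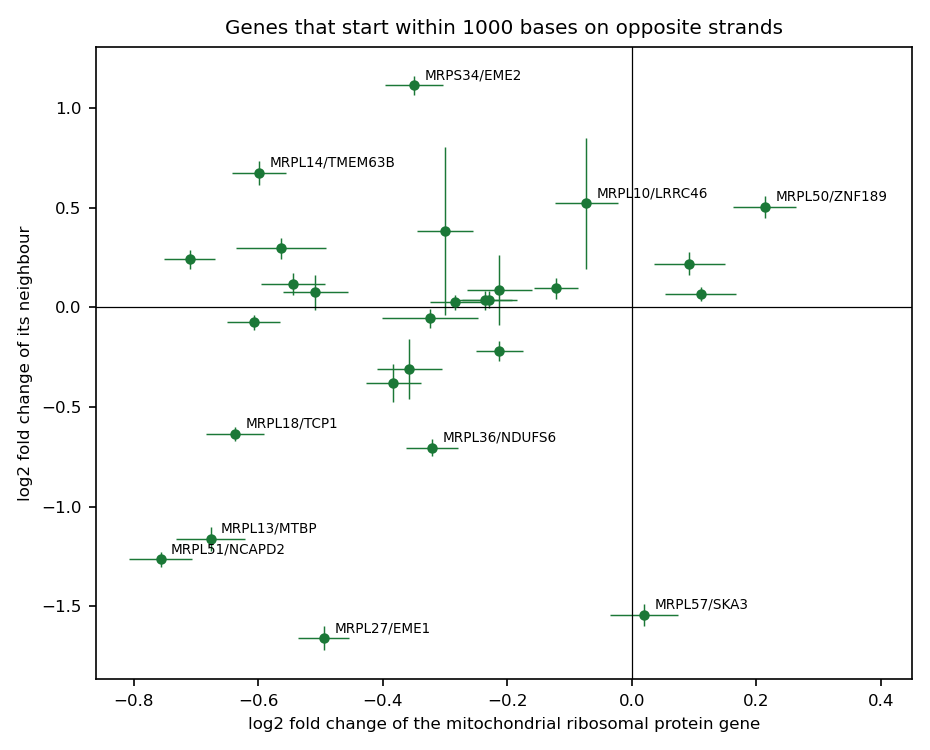
Log2 fold change (TP-064 minus DMSO) of the mitochondrial ribosomal protein gene (horizontal axis) and of the neighbour that starts within 1000 bases on the opposite strand by GENCODE bounds (vertical axis), with bars of 1 standard error, for 27 pairs. Points lie in all parts of the left side, from MRPL27 with EME1 at -1.66 to MRPS34 with EME2 at 1.11; MRPS27 changes sign with library size scaling.

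RefSeq promoter windows were found for 69 of the 78 genes. CCGGAAG occurred on either strand in 42.0% of them, against 19.8% of 9702 promoters of tested protein-coding genes and 10.7% of all 27305 promoters. AAGATGGC occurred in 20 of the 69, against 5.62% and 3.03%. GCGCATGC occurred in 8.70%, against 5.69% and 3.27%, and CACGTG in 8.70%, against 10.2% and 7.43%. The windows had a median of 60.3% G and C, against 65% for tested protein-coding genes and 58.3% for all promoters. No match to CCGGAAG overlapped one to AAGATGGC. Of 21 AAGATGGC matches 15 began after the start, as in the MRPL51, MRPL22, MRPS30 and MRPL46 windows.

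At least 1 of CCGGAAG, GCGCATGC and AAGATGGC was present in 42 of the 69 windows, or 60.9%, against 28.0% of those of tested protein-coding genes. The 29 genes with CCGGAAG had a median log2 fold change of -0.24 and the 40 without it -0.28. The 20 genes with AAGATGGC had a median of -0.28 and the 49 without it -0.24. All 6 genes with GCGCATGC (MRPL17, MRPS18C, MRPL22, MRPL52, MRPL32 and MRPS18B) were lower, with a median of -0.54. Of the 63 without it 43 were lower and 8 higher, with a median of -0.24. Of the 6 with CACGTG 5 were lower and 0 higher, with a median of -0.44. Of the 63 without CACGTG 44 were lower and 8 higher, with a median of -0.25. The part of these motifs in the result was not tested. MRPL52, an acquired protein of the large subunit, had 1340, 1351 and 1182 normalized read counts under TP-064 and 1834, 1814 and 1853 under DMSO. MRPL32, which must be cleaved by a mitochondrial protease before it joins the ribosome, had 2540, 2692 and 2492 under TP-064 and 3366, 3516 and 3194 under DMSO. A match is a run of letters and not a bound site.

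**Figure D4:**
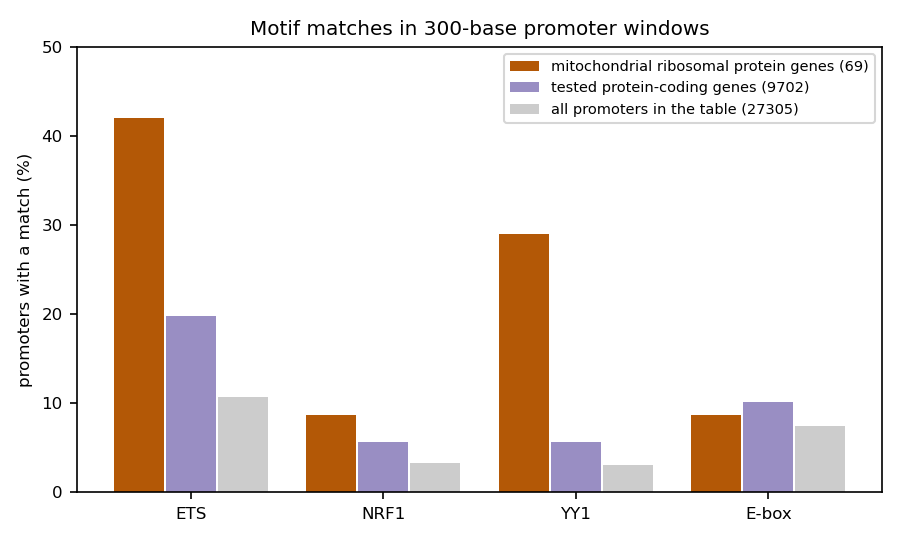
Percentage of 300-base promoter windows with at least 1 match on either strand (vertical axis) for 4 motifs, in 69 mitochondrial ribosomal protein genes, 9702 tested protein-coding genes and all 27305 promoters. The ETS and YY1 motifs have the widest gaps, with 42.0% against 19.8% for ETS, and 20 of 69 windows against 5.62% for YY1.

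Factors known to act on nuclear genes for mitochondria did not share a direction. NRF1, whose motif is GCGCATGC, had 1143, 1107 and 1095 normalized read counts under TP-064 and 2124, 2060 and 1949 under DMSO, giving a log2 fold change of -0.87 (standard error 0.046, adjusted p = 2.69e-10 by limma). GABPA, an ETS factor, was at 3319 ± 197 under TP-064 and 4054 ± 138 under DMSO, and YY1 at 11536 ± 158 under TP-064 and 13222 ± 235 under DMSO (SD, n = 3 each), log2 fold changes of -0.29 and -0.20. ESRRA, an orphan nuclear receptor, rose by 0.52, with 4463 ± 96.7 under TP-064 and 3115 ± 104 under DMSO (SD, n = 3 each). PPARGC1B, a coactivator of NRF1 and ESRRA, at 0.05, and MYC at 0.09 (adjusted p = 0.0519 by limma) did not pass. MYC passed as higher without TP-064 replicate 3 (0.14), with TMM scaling, by edgeR with TMM and by DESeq2. It also passed with the filter of 1 CPM in 3 samples, with the replicate block and without genes overlapping an opposite-strand exon. With library size scaling both PPARGC1B and MYC passed (0.17 and 0.22). CARM1 itself was lower by 0.24, and since TP-064 acts on the protein this level does not test the labels.

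Other genes that serve mitochondrial gene expression were read from lists, described by counts without a test. For reading the counts here and in the next paragraph, 33.3% of all tested genes were called lower and 31.9% higher. Among protein-coding genes with a mean of at least 200, 43.6% were lower and 35.5% higher. Among 5 subunits of the mitochondrial ribosome with other names, GADD45GIP1 fell by 0.49 and CHCHD1 by 0.31, while DAP3 at -0.08, AURKAIP1 at -0.08 and PTCD3 at 0.04 did not pass. Without TP-064 replicate 2, 4 of the 5 were lower. Of 16 mitochondrial translation factors 7 were lower and 4 higher, or 43.8% and 25%, with a median of -0.03. TSFM, an elongation factor, fell by 0.34 and MTRF1, of the release factor family, by 0.32, and the recycling factor MRRF rose by 0.17. Of 29 genes of ribosome assembly and ribosomal RNA modification 15 were lower and 6 higher, with a median of -0.12. In that list MTERF3 fell by 0.50 and the methyltransferase MRM2 by 0.36, and YBEY rose by 0.40. Higher calls were 2 among the translation factors without DMSO replicate 2 or 3 or TP-064 replicate 2 or 3, and 3 in the assembly list without DMSO replicate 1 or 3 or TP-064 replicate 2. Of 24 genes of mitochondrial transcription and RNA processing 14 were lower and 3 higher, with a median of -0.13. TFAM, which packages mitochondrial DNA and starts its transcription, fell by 0.72 and the RNA-binding protein SLIRP by 0.69, and FASTK rose by 0.43. With library size scaling the medians of the subunits with other names, the translation factors and the assembly list turned to 0.05, 0.09 and 0.00162, and that of the transcription list was -0.01.

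Nuclear-encoded subunits of the oxidative phosphorylation complexes, most of which hold products of the mitochondrial ribosome, were lower in 66 of 77 genes and higher in 1. Their median was -0.34. UQCRH of complex III fell by 0.66 and COX7B of complex IV by 0.60, while NDUFA10 of complex I rose by 0.13. Without TP-064 replicate 1 or 3, 2 genes were higher. With library size scaling 55 were lower and 7 higher, with a median of -0.22. Cytosolic ribosomal protein genes, which serve the other ribosome of the cell, were lower in 19 of 84 genes, higher in 23 and not called in 42, with a median of 0.02. RPL13A rose by 0.35 and RPL31 by 0.28, and RPL39L, a paralogue of RPL39, fell by 1.28. Without TP-064 replicate 2, 29 were lower. With library size scaling 12 were lower and 54 higher, with a median of 0.14, close to the 0.13 of all tested genes under that scaling. Many cytosolic ribosomal protein genes have processed copies, so their counts are uncertain. The mRNAs encoded by the mitochondrial genome were not analysed here.

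**Figure D5:**
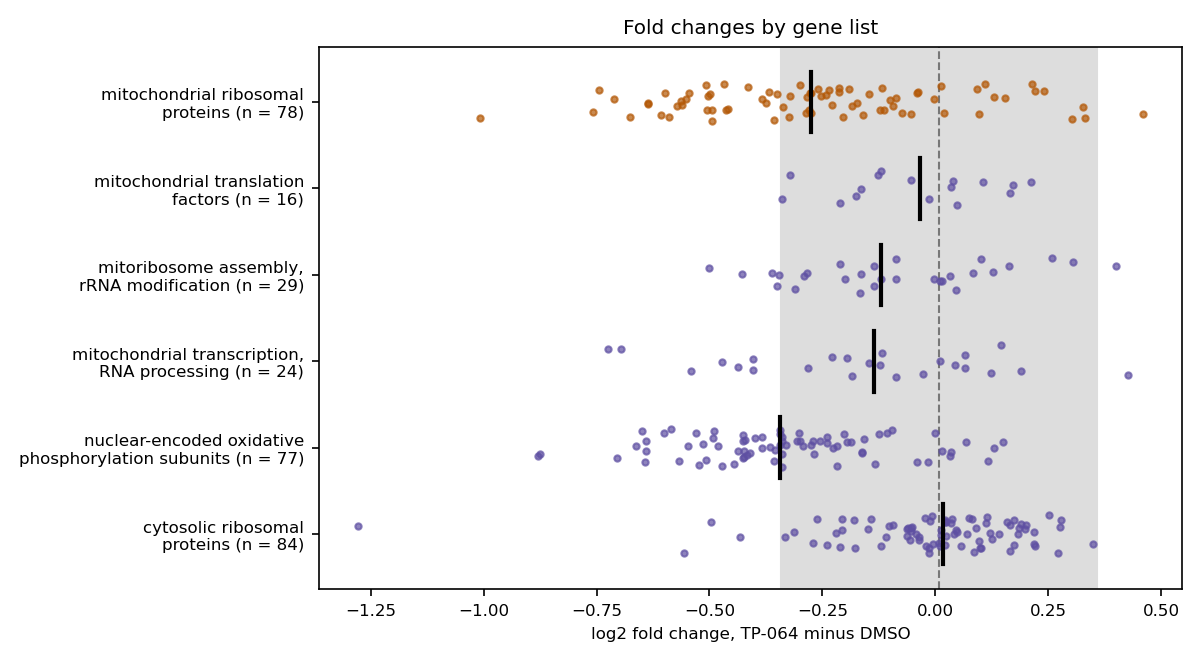
Log2 fold change (TP-064 minus DMSO, horizontal axis) of each tested gene in 6 lists, with each list's median as a black line and the median and quartiles of all tested genes as a dashed line and a grey band. The medians are -0.27 for mitochondrial ribosomal proteins, -0.34 for oxidative phosphorylation subunits and 0.02 for cytosolic ribosomal proteins; with library size scaling the medians of the translation factors and of the assembly list turn to 0.09 and 0.00162.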

How the data were processed

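Messenger RNA of 3 TP-064 and 3 DMSO samples of the Toledo line was measured on stranded libraries, per the labels' protocols. Per the submitters' processing notes, the build was hg38 and the tools were DESeq 1.18.0, HTSeq 0.6.0 and TopHat2 2.0.10. Neither annotation, strand setting nor row filter is given in the sources used here. The authors deposited 1 table of a signal per gene and sample, the read count divided by a size factor of the library. Dividing each library by its smallest step gave whole reads for 100% of values, within 0.001. In replicate 2 of each group the step is close to 1, which its size alone cannot tell from rounding. Recovered totals ran from 41354131 to 48360867 reads and bound counting error only. Each listed gene had at least 10 reads in at least 1 library.

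From these values, limma 3.58.1 with the trend option (R 4.3.3) tested log2 values, with a pseudocount of 1 added to the normalized read count, for genes with a mean of at least 10, which left out 2230. Calls used a two-sided Benjamini-Hochberg adjusted p under 0.05, with 4 residual degrees of freedom and no block. The scale understates changes of low genes. Gene symbols matched GENCODE release 29 for 18214 of 18278 genes. Transcript length is that of the protein-coding transcript with the longest coding part.

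The members and lists were chosen with earlier results of these data known. Named genes are, per subunit and with a mean of at least 200, up to 6 lower and 4 higher with the largest change, the highest and lowest in mean, the 2 smallest changes, the MRPS18 genes, MRPL12, MRPL58, MRPS30 and MRPS36, and up to 2 and 1 per list by p. Genes named for their place in the ribosome, their neighbours or their motifs, and MRPL53, were chosen after their values were seen. Alternatives were edgeR 4.0.16 and DESeq2 1.42.0 on recovered reads, TMM and library size scaling, no filter, 1 CPM in 3 samples, pseudocounts of 0.5 and 5, an adjusted p under 0.01, testing against a 1.2-fold change, a replicate block, each replicate left out, and genes without an opposite-strand overlap.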

Additional observations from a re-analysis of the deposited data

How the results depend on the processing

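Over 19 alternatives, 26 of the 56 lower calls and 1 of the 8 higher calls remained in each that tested the gene. Leaving aside the 1.2-fold null, the 0.01 threshold and library size scaling, 51 of 56 and 6 of 8 remained. The 1.2-fold null gave 26 lower and 1 higher, and 5592 calls over all genes in place of 10449. Library size scaling gave 14 higher and a median of -0.15, and, among genes called in either scaling, reversed the sign of MRPL19 (0.00389), MRPS23 (0.00859), MRPS27 (0.00133) and MRPS14 (0.12). Without genes that overlap an opposite-strand exon, 35 were lower, by construction among 50 tested. Leaving out 1 replicate gave 53 to 56 lower, 6 to 8 higher, medians of -0.30 to -0.23, the smallest of them without TP-064 replicate 1, and 9732 to 10247 calls over all genes. Lower calls of MRPL33, MRPL19, MRPS23, MRPS26 and MRPL38 were lost without 1 or more libraries, and MRPL35, MRPL43, MRPS31, MRPS2 and MRPL45 passed without one. The replicate block changed no call among the 78 genes, with 56 lower, 8 higher and 10491 calls over all genes. Same-numbered samples did not deviate together (correlations of -0.0859, 0.0659 and -0.0793), and of the 3 TP-064 samples 1, replicate 2, correlated best with its own number. On recovered reads edgeR called 10493 genes with the size factors and 10543 with TMM, and DESeq2 9485. The recount of neighbouring pairs by RefSeq starts was chosen after seeing the data. The cause of these differences was not tested. Low counts limit MRPS24, MRPS28 and MRPL53. Exons of other genes on the same strand also cover 35.8% of the MRPS28 exon length and 37.5% of that of MRPL38, so both counts are uncertain.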
